A study of Homo sapiens with 8 samples.

Results

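The genes described here are 33 direct targets of wild-type p53, taken as a fixed list of gene symbols and looked up among the 25435 gene rows of one count table. All 33 had a row. Of these, 30 had enough counts to be tested, while PHLDA3, TRIM22 and EDA2R did not. The cells were HGC27, an established line from an undifferentiated human gastric carcinoma, which the labels describe as having no p53. They overexpressed GFP as the control, or p53 with the substitution R175H, R248Q or R273H, and every group was grown in alpha-MEM medium. R175H disturbs the fold of the DNA-binding domain, whereas R248Q and R273H replace arginines at the DNA contact surface. There were 8 mRNA sequencing libraries, 2 for each of 4 groups. The sources used here do not give the vector, its promoter, the duration of expression or whether the cells were clones or pools. The title of the series speaks of p53 knockout and knockdown, while the sample labels and the design text give overexpression, and the groups follow the sample labels.

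Wild-type p53 is a transcription factor that binds DNA as a tetramer and is held at a low level by the ubiquitin ligase MDM2, itself a p53 target. After DNA damage or other stress it accumulates and turns on genes for cell cycle arrest, death, DNA repair and metabolic adjustment. Substitutions in its DNA-binding domain, which are common in tumours, reduce or abolish binding to these genes. The listed genes also have other activators, so that they are expressed in cells without p53. SESN2, GDF15, PMAIP1, TNFRSF10B and GADD45A, for example, are also known as targets of ATF4 or of its partner CHOP in the integrated stress response.

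Total counts were 6800463 to 11788035 per library, with the lowest in R175H replicate 1. Within GFP the replicates were farther apart than within a mutant, with a chi-square per degree of freedom of 5.72 against 1.21 to 1.60. GFP replicate 1 had relatively few counts in transcripts of 8000 nt or more, with a median deviation of -0.29 (log2) over 774 such genes, against -0.04 in GFP replicate 2. Of the 30 tested p53 targets, 2 had transcripts of that length, and the median length was 2836 nt, against 3081 nt over all tested genes. Markers of gastric mucosa were near 0: 5 of 7 had no count in any library, and their summed level was at most 0.411 CPM. Of 6 epithelial markers, which summed to 1.01 to 4.03 CPM, KRT8 alone passed the count filter. KRT8 was called higher in R248Q (1.32, log2, against GFP) and in no other mutant, from 3 to 39 counts per library. Its group means were 1.22 (GFP), 0.390 (R175H), 3.08 (R248Q) and 1.86 CPM (R273H). Of 4 mesenchymal markers, VIM was at 4942, 5674, 4662 and 5046 CPM in the same order and was called higher in R175H. COL1A1 was at 1455, 1340, 1884 and 1853 CPM and was called higher in R248Q and R273H. FN1 was at 36.7 to 39.2 CPM and was not called, and CDH2 was below 1 CPM in every library. The part of these marker levels in the results below was not tested, and fewer cells of a type cannot be told apart from less RNA per cell. Endothelial markers summed to at most 0.148 CPM and blood markers to 2.98 to 4.60 CPM. Nothing in the labels says that the replicates were separate cultures, so the p-values measure the spread between these libraries, which may be technical.

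The 250 bases before the annotated start were searched on both strands for the p53 half-site, the degenerate consensus of 10 bases of which the tetramer binds a pair. They were also searched for TGATGCAA, the core of the ATF4 amino acid response element, and for ACGTG, the core of the hypoxia response element. Promoter entries of RefSeq (build GRCh38.p14) matched 26 of the 33 genes. A p53 half-site lay in 4 of these 26 windows, those of PLK2, AEN, FDXR and RPS27L, and in 5.57% of 35114 windows of the same length over all genes. The TGATGCAA core lay in 0 of the 26 windows and in 0.772% of all windows. The ACGTG core, whose matches on opposite strands can overlap, lay in 5 of the 26 windows (PLK2, CCNG2, BAX, BBC3 and XPC) and in 18.5% of all windows. The windows printed here were chosen after the matches had been seen. The 4 windows with a p53 half-site are shown because 2 of these genes, PLK2 and AEN, changed in R175H in opposite directions while the other 2 were not called in any comparison. SESN2 and GDF15, which rose, are shown beside them. Capitals mark the p53 half-site, and each sequence runs 5′ to 3′ in the direction of the gene, ending 1 base before its start.
PLK2, chr5:58460087-58460336, minus strand: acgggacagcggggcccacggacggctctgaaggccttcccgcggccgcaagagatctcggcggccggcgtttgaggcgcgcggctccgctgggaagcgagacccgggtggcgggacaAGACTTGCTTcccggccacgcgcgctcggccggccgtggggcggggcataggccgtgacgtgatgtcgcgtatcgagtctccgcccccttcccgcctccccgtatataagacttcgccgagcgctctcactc
AEN, chr15:88621090-88621339, plus strand: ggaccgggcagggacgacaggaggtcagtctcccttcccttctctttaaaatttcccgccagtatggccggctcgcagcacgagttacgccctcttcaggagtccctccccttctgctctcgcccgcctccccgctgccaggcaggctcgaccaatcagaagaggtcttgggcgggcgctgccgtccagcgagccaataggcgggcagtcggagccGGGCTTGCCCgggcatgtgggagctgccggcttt
RPS27L, chr15:63157478-63157727, minus strand: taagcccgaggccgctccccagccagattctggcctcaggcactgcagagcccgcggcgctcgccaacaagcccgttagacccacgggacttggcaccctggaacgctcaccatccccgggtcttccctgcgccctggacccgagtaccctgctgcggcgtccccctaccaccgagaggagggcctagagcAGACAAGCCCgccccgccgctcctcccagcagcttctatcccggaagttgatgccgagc
FDXR, chr17:74872995-74873244, minus strand: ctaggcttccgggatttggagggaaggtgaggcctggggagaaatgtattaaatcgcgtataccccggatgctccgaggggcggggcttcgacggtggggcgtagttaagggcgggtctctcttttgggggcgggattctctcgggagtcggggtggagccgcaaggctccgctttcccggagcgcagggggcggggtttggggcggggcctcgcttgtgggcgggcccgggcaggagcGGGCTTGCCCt
SESN2, chr1:28259268-28259517, plus strand: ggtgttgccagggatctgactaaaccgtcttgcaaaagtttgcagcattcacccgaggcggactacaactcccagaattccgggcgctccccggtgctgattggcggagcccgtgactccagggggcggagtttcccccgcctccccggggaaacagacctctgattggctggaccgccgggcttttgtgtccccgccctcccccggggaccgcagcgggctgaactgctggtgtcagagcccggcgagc
GDF15, chr19:18385908-18386157, plus strand: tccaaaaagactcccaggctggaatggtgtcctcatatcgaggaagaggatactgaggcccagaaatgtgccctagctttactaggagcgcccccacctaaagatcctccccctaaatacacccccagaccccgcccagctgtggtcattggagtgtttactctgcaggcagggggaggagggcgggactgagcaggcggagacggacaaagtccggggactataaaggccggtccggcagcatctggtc
The match lay 132 to 123 bases before the start in PLK2, 34 to 25 in AEN, 59 to 50 in RPS27L and 11 to 2 in FDXR. AEN and FDXR shared the same letters, GGGCTTGCCC. These windows say nothing of sites farther away or within introns, where many known p53 sites lie.

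In the GFP control the level per length of transcript ranged from 97.4 to 0.616 over the tested p53 targets. These levels are TMM-normalised CPM (counts scaled to the library total) per kilobase of 1 representative transcript. BAX, which opens the mitochondrial outer membrane in apoptosis, was highest, with 105.5 and 89.4 CPM per kb in the GFP libraries. PLK2, a stress-responsive polo-like kinase, followed with 65.6 and 69.0, and CCNG1, a cyclin that binds phosphatase PP2A, with 38.9 and 36.6. The quinone oxidoreductase TP53I3 (25.7 and 27.3) and the ferredoxin reductase FDXR (23.4 and 23.3) came next. TRIAP1, an inhibitor of apoptosis, was next with 23.1 and 20.1, and its range met neither that of FDXR nor that of GADD45A (18.96 and 20.01). CDKN1A, which encodes the CDK inhibitor p21, was 17th of the 33 with 4.58 and 5.58 CPM per kb, and it overlapped with FAS, RPS27L, BBC3 and SERTAD1. The lowest tested members were PLK3, ZMAT3, SPATA18 and TP53INP1, with means of 1.28 down to 0.616 CPM per kb. The lengths used for RPS27L (6434 nt) and FBXO22 (10725 nt) are those of long annotated transcripts, so their levels per kb are too low if shorter forms prevail.

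**Figure D1:**
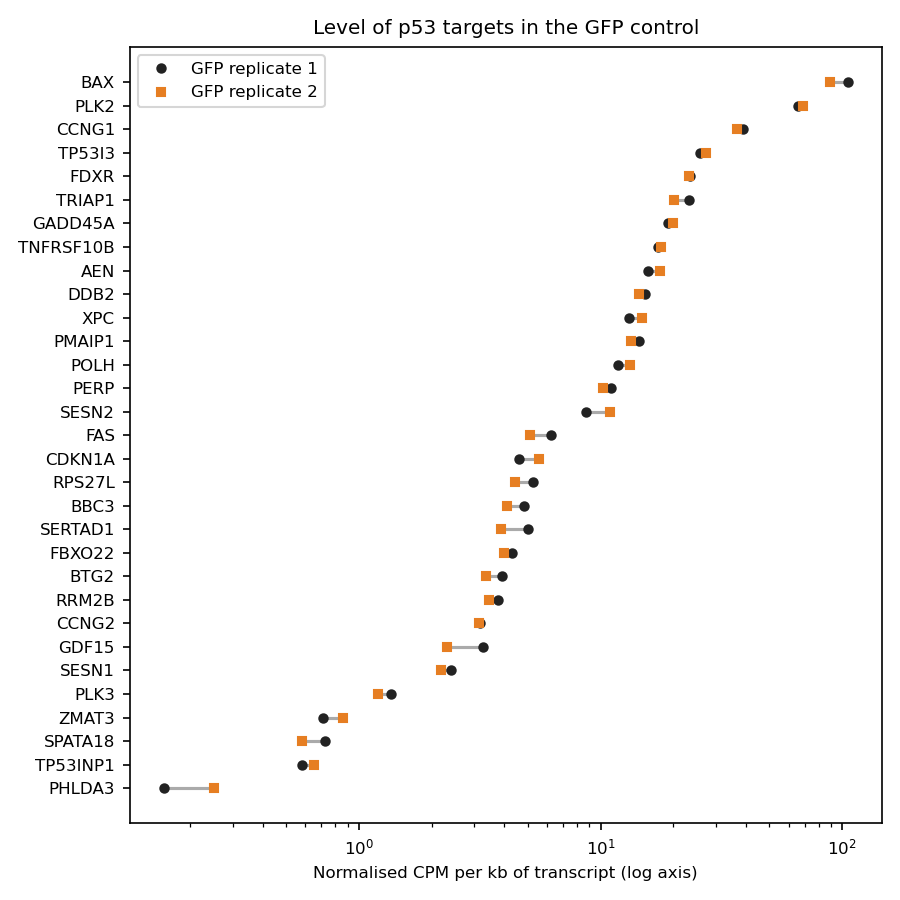
Normalised CPM per kb of transcript (log axis) in GFP replicate 1 (circles) and GFP replicate 2 (squares) for the 31 p53 targets with any count in GFP. The genes run from BAX, with a mean of 97.4, down to PHLDA3, with 0.204; in neighbouring genes the ranges of the libraries often overlap.

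Members without enough counts were PHLDA3, an inhibitor of AKT, TRIM22, a ubiquitin ligase induced by interferon, and EDA2R, a receptor of the TNF family. PHLDA3 had 0 to 9 counts per library, and TRIM22 had 0 to 2. EDA2R had 0 counts in all 8 libraries, and 3 counts, taken as the limit that a count of 0 allows, corresponded to 0.256 to 0.443 normalised CPM. These 3 genes were left out of the test, so whether they changed was not determined.

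Each mutant was compared with GFP in edgeR's quasi-likelihood model, with p-values adjusted by Benjamini-Hochberg over all 13213 genes tested, and a gene was called at an adjusted p below 0.05. In R175H 4 of 30 members rose and 1 fell, 16.7% in all, where 11.0% of all tested genes were called (6.39% higher and 4.59% lower). In R248Q 1 rose and 1 fell, where 6.32% of all genes were called (4.88% higher and 1.44% lower). In R273H 1 rose and none fell, where 1.01% of all genes were called (0.757% higher and 0.250% lower). These shares rest on 5, 2 and 1 genes, and nothing is read from them about the list as a whole. Libraries did not overlap with GFP for 18 of 30 members in R175H (51.1% of all genes), 12 in R248Q (50.5%) and 15 in R273H (39.5%). The members' median log2 fold change was 0.05 (R175H), -0.07 (R248Q) and -0.08 (R273H), and 0.01, -0.01 and 0.00 over all genes. The 95% interval of the fold change lay within 1.5-fold in either direction for 20 of 30 members in R175H, 24 in R248Q and 25 in R273H. These 3 comparisons share the GFP libraries, so their results are not independent of each other.

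**Figure D2:**
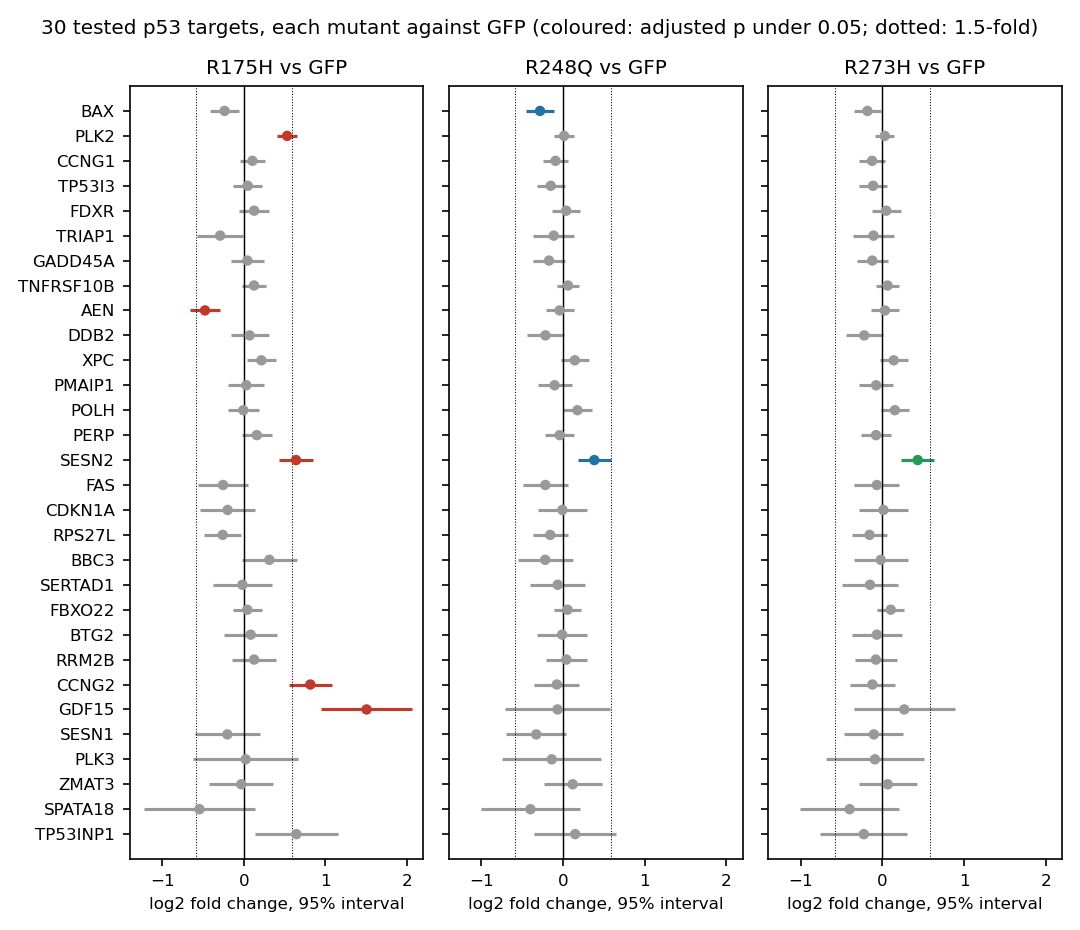
Log2 fold change with its 95% interval for the 30 tested p53 targets, in order of their level in GFP, for R175H, R248Q and R273H against GFP. Coloured points passed the threshold (5, 2 and 1 genes); dotted lines mark 1.5-fold, and GDF15 in R175H, at 1.503, is the farthest from 0.

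Among the genes of cell cycle and growth arrest, PLK2 and CCNG2 rose in R175H and none of the 8 tested fell. PLK2 measured 194 and 204 CPM in GFP, against 295 and 280 (R175H), 201 and 200 (R248Q) and 203 and 203 (R273H). Both R175H libraries were above all 6 others, which lay within a narrow range. In R175H the rise was 0.53 ± 0.06 (log2, SE, n = 2 per group, adjusted p = 1.72e-05), a fold of 1.44 (95% interval 1.33 to 1.57). CCNG2, an unconventional cyclin linked to exit from the cell cycle and also known as a FOXO target, measured 17.5 and 17.4 CPM in GFP, against 31.4 and 30.1 (R175H), 14.2 and 18.9 (R248Q) and 16.5 and 15.6 (R273H). Its R175H libraries again stood above the rest, while R248Q overlapped with GFP. CCNG2 rose in R175H by 0.81 ± 0.12 (log2, SE, adjusted p = 5.75e-04). The related cyclin CCNG1 had 95.5 and 90.0 CPM in GFP and 105 and 95.4 in R175H, a fold change of 0.11 ± 0.07 (log2, SE) that was not called.

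CDKN1A was not called in any comparison. It measured 10.4 and 12.6 CPM in GFP, against 9.74 and 10.2 (R175H), 10.6 and 12.2 (R248Q) and 11.1 and 12.04 (R273H). Both R175H libraries were just below GFP replicate 1, and the other groups overlapped with GFP. Relative to GFP, R175H had a fold of 0.871 (95% interval 0.690 to 1.10), R248Q of 0.994 (0.805 to 1.23) and R273H of 1.01 (0.818 to 1.24). Of the other arrest genes, BTG2, an antiproliferative cofactor, GADD45A, a stress sensor that binds PCNA and p21, and the CDK4-binding SERTAD1 had intervals within 1.5-fold in each mutant. The kinase PLK3, with 23 to 45 counts per library, had wider intervals that reached past 1.5-fold in each mutant.

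Among genes of mitochondrial death and its modulators, AEN fell in R175H and BAX in R248Q, and none of 8 tested rose in any mutant. AEN, a nuclease that digests DNA during apoptosis, measured 48.9 and 55.0 CPM in GFP, against 36.9 and 37.7 (R175H), 51.6 and 49.2 (R248Q) and 55.0 and 51.2 (R273H). Both R175H libraries lay below all others, and the remaining groups overlapped. AEN fell by 0.48 ± 0.09 in R175H (log2, SE, n = 2 per group, adjusted p = 0.00263), a fold of 0.719 (95% interval 0.631 to 0.820). It thus moved against PLK2, the other changed gene with a p53 half-site in its promoter window.

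BAX measured 83.7 and 70.9 CPM in GFP, against 64.5 and 66.7 (R175H), 61.4 and 65.8 (R248Q) and 68.5 and 67.9 (R273H). All 6 mutant libraries were below both GFP libraries, which were themselves farther apart than those of any mutant. BAX was called lower in R248Q only (-0.28 ± 0.08, log2, SE, adjusted p = 0.0482), with -0.24 in R175H (adjusted p = 0.0845) and -0.18 in R273H (adjusted p = 0.351). Without GFP replicate 2, which leaves only the GFP library with the higher BAX level, the values were -0.35 in R175H and -0.30 in R273H. The R248Q call was lost without GFP replicate 1 (-0.16), either R248Q library (-0.23 and -0.33) or 1 library of another mutant (-0.28 each), and with a correction for transcript length (-0.13). Its replicate block value was not called either (-0.28, adjusted p = 0.0942). DESeq2, scaling by library size alone and a fit of only the groups compared also left it uncalled (-0.28 each).

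The BH3-only gene BBC3, which encodes PUMA, measured 8.84 and 7.54 CPM in GFP, against 10.5 and 9.98 (R175H), 7.07 and 7.02 (R248Q) and 7.65 and 8.54 (R273H). Its R175H libraries were the highest and its R248Q libraries the lowest, but neither passed the test against GFP (0.31 ± 0.16 and -0.22 ± 0.16, log2, SE, adjusted p = 0.230 and 0.443). PMAIP1, which encodes the BH3-only protein NOXA, stayed between 24.1 and 29.1 CPM in all 8 libraries and had intervals within 1.5-fold in each mutant. So did PERP, a membrane protein of desmosomes that also promotes apoptosis, and the ribosomal protein homologue RPS27L. Without GFP replicate 2, the R175H values of RPS27L and TRIAP1 were -0.38 and -0.39 (log2). With the length correction RPS27L was called lower in R175H (-0.35, adjusted p = 0.0431). That correction took RPS27L as a transcript of 6434 nt, so this call depends on a length that is too long if shorter forms prevail. TP53INP1, which promotes autophagy and death, measured 3.29 and 3.66 CPM in GFP, against 5.90 and 5.05 (R175H), 3.24 and 4.45 (R248Q) and 2.85 and 3.07 (R273H). It was not called in R175H (0.64 ± 0.24, log2, SE, adjusted p = 0.0981), from 32 to 52 counts per library.

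The death receptors FAS and TNFRSF10B were not called in any mutant. FAS measured 16.04 and 13.1 CPM in GFP, against 12.4 and 12.1 (R175H), 13.2 and 11.9 (R248Q) and 13.6 and 14.3 (R273H). Both R175H libraries lay below GFP, while 1 R248Q library and both R273H libraries were within its range. TNFRSF10B, the TRAIL receptor DR5, had 71.5 and 74.0 CPM in GFP and between 74.6 and 79.5 in the mutants. All its mutant libraries were above GFP, but by a fold of no more than 1.09, with an upper 95% bound of 1.21 in R175H.

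None of the 4 DNA repair genes was called against GFP, and every interval lay within 1.5-fold. Without GFP replicate 2, the log2 values of XPC were 0.31 (R175H), 0.24 (R248Q) and 0.23 (R273H), and that of POLH in R248Q was 0.26. These larger values rest on GFP replicate 1 alone, where XPC was at 50.2 CPM, against 57.1 in GFP replicate 2. DDB2, which recognises ultraviolet lesions, measured 28.5 and 27.1 CPM in GFP, against 25.8 and 32.0 (R175H), 22.8 and 25.015 (R248Q) and 24.1 and 23.6 (R273H). R248Q and R273H lay below both GFP libraries, with log2 fold changes of -0.22 each (adjusted p = 0.243 and 0.405), while R175H spanned them. XPC, its partner in lesion recognition, was at 50.2 and 57.1 CPM in GFP and 57.5 to 65.1 in the mutants. POLH, a polymerase that copies past damaged bases, and RRM2B, a subunit of ribonucleotide reductase, had log2 fold changes between -0.08 and 0.18.

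Among the genes of stress and metabolism, GDF15 and SESN2 rose and none of the 6 fell. GDF15, a secreted cytokine of the TGF-beta superfamily, measured 3.91 and 2.77 CPM in GFP, against 11.5 and 7.96 (R175H), 2.98 and 3.43 (R248Q) and 3.11 and 4.95 (R273H), from 25 to 78 counts per library. The R175H libraries were above all others, though apart from each other, and the remaining 3 groups overlapped. GDF15 rose in R175H by 1.503 ± 0.26 (log2, SE, n = 2 per group, adjusted p = 0.00160), a fold of 2.83 (95% interval 1.93 to 4.16). In R248Q and R273H its 95% intervals of the fold ran from 0.610 to 1.49 and from 0.786 to 1.85, so changes within those ranges stay possible. The smallest rise that the test would have called was not determined.

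SESN2, a sestrin that restrains mTORC1 when leucine is scarce, was the 1 member called in every mutant. It measured 30.1 and 37.9 CPM in GFP, against 53.3 and 52.5 (R175H), 44.5 and 44.0 (R248Q) and 45.1 and 46.5 (R273H). All 6 mutant libraries were above both GFP libraries, and R175H was above R248Q and R273H. The log2 fold change was 0.64 ± 0.10 in R175H (adjusted p = 6.24e-04), 0.38 ± 0.10 in R248Q (0.0259) and 0.43 ± 0.10 in R273H (0.0381, SE, n = 2 per group). GFP replicate 1 had the lowest SESN2 level of all libraries, and without it the values were 0.48 (adjusted p = 2.88e-04), 0.22 (0.238) and 0.27 (0.183). The R248Q call was also lost without either R248Q library (0.38 and 0.39), either R175H library (0.38 each) or R273H replicate 2 (0.38). The R273H call was lost without any 1 mutant library (0.41 to 0.46), and with a replicate block (0.43, adjusted p = 0.0830) or library size alone (0.42, adjusted p = 0.0651). DESeq2 called neither (adjusted p = 0.0696 in R248Q and 0.102 in R273H), nor did a fit of only the groups compared (0.0981 and 0.235).

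The paralogue SESN1 had 8.43 and 7.65 CPM in GFP and 5.71 to 7.77 in the mutants, and was not called (log2 fold changes of -0.20, -0.33 and -0.10). TP53I3 and FDXR had intervals within 1.5-fold in each mutant. SPATA18, which acts in mitochondrial quality control, was lower in all 6 mutant libraries (1.48 to 2.40 CPM, against 3.19 and 2.55 in GFP), from 10 to 31 counts, and was not called. In the last group, the RNA-binding protein ZMAT3, a regulator of splicing, measured 6.68 and 8.10 CPM in GFP, against 7.53 and 6.95 (R175H), 7.41 and 8.57 (R248Q) and 8.18 and 7.26 (R273H), so that all groups overlapped. FBXO22, an F-box protein of a ubiquitin ligase, was between 42.7 and 49.0 CPM.

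**Figure D3:**
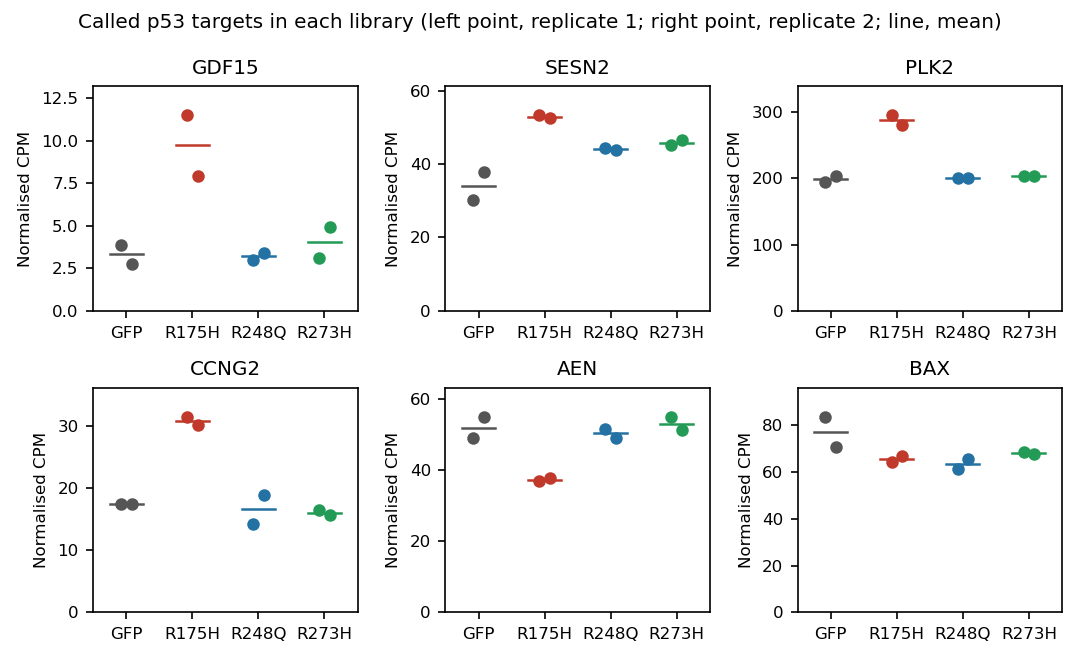
Normalised CPM (linear axes from 0) in each of the 8 libraries for the 6 p53 targets called in at least 1 mutant, with a line at each group's mean. GDF15, PLK2 and CCNG2 are higher and AEN lower in R175H alone, SESN2 is higher in all mutants, and BAX is lower in all mutants with GFP replicates apart.

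**Figure D4:**
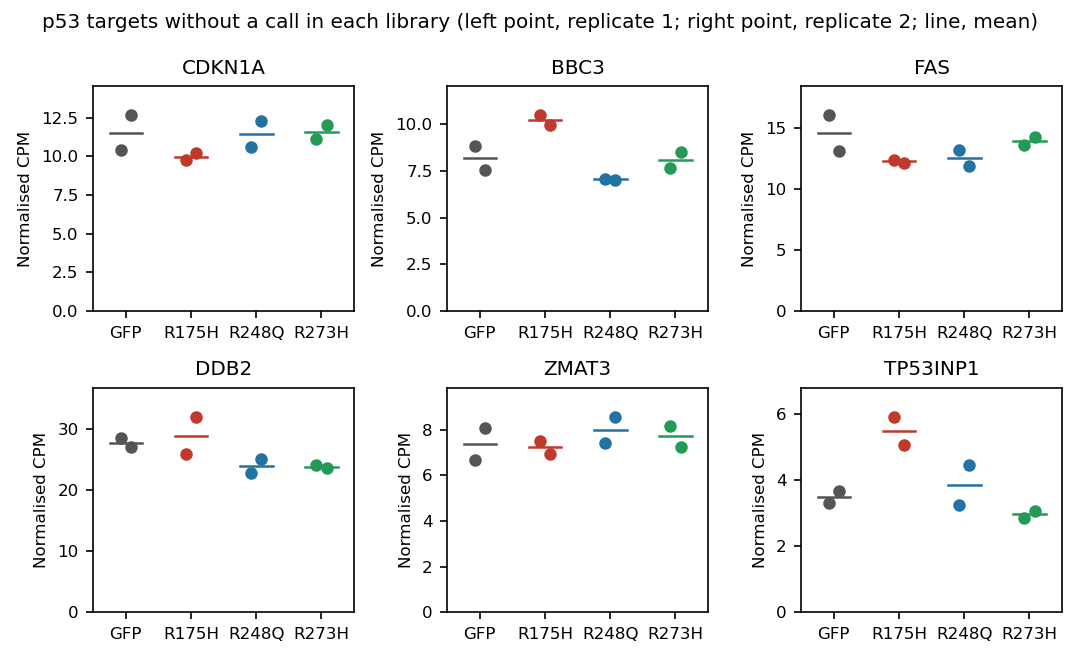
Normalised CPM (linear axes from 0) in each of the 8 libraries for CDKN1A, BBC3, FAS, DDB2, ZMAT3 and TP53INP1, none of which was called against GFP, with a line at each group's mean. CDKN1A stays between 9.74 and 12.6 CPM; BBC3 and TP53INP1 are highest in R175H.

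The mutants were then compared with each other, which tests directly whether a change differs between them and does not rest on the GFP levels. The spread used in these tests was still estimated over all 8 libraries, GFP included. Against R175H, 4 of 30 members were called in R248Q (7.17% of all genes) and 4 in R273H (3.63%), and in both cases they were PLK2, CCNG2, GDF15 and AEN. Both comparisons share the R175H libraries. The members called lower numbered 3 in each (3.95% and 2.22% of all genes), and 1 was higher in each (3.22% and 1.41%). PLK2 differed by -0.52 ± 0.06 in R248Q and -0.50 ± 0.06 in R273H (log2, SE, n = 2 per group, adjusted p = 2.27e-05 and 4.11e-05). CCNG2 had -0.89 ± 0.12 and -0.94 ± 0.12 (adjusted p = 2.30e-04 and 2.36e-04), and GDF15 -1.57 ± 0.25 and -1.23 ± 0.24 (9.60e-04 and 0.00776). AEN was higher than in R175H by 0.43 ± 0.09 in R248Q and 0.51 ± 0.09 in R273H (adjusted p = 0.00620 and 0.00285). The GDF15 difference of R273H was not called without R175H replicate 1 (-0.97) or R273H replicate 1 (-0.94). The AEN difference was not called without either R175H library (0.42 and 0.45 in R248Q, 0.49 and 0.52 in R273H), nor without R248Q replicate 1 (0.40) or R273H replicate 1 (0.46) in the comparison concerned.

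SESN2, in contrast, was not called between mutants, with -0.26 ± 0.09 in R248Q and -0.21 ± 0.09 in R273H against R175H (log2, SE, adjusted p = 0.110 and 0.265). Fitted without either GFP library, the R248Q difference of SESN2 was the same size and passed (-0.26, adjusted p = 0.00921 and 0.00940). BBC3 had -0.53 ± 0.16 in R248Q against R175H (adjusted p = 0.0534) and TP53INP1 -0.87 ± 0.24 in R273H against R175H (adjusted p = 0.0559). Each was called under 5 alternatives, among them those without either GFP library, with adjusted p of 0.0145 to 0.0443 for BBC3 and 0.0110 to 0.0244 for TP53INP1. Without either GFP library, CCNG1 and DDB2 were also called lower in both mutants than in R175H, and PERP in R273H. Between R273H and R248Q edgeR called 0 of 30 members (0.151% of all genes), none reached an unadjusted p under 0.05 (0 of 30), and neither did DESeq2 or limma-voom call any. For 26 of 30 members the 95% interval of that difference lay within 1.5-fold.

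For the mean of the 3 mutants against GFP, SESN2 (0.48 ± 0.08) and PLK2 (0.19 ± 0.05) were called higher and BAX lower (-0.23 ± 0.07, log2, SE, adjusted p = 0.00180, 0.0193 and 0.0400), where 8.26% of all genes were called (5.21% higher and 3.04% lower). The PLK2 value averages a rise in R175H with values of 0.01 and 0.03 in R248Q and R273H, and its call was lost without R175H replicate 1 (0.18) and without any 1 library of R248Q or R273H (0.19 each). The BAX call was lost without GFP replicate 1 (-0.11) and without any 1 mutant library (-0.25 to -0.22), and with DESeq2 (-0.24), the replicate block (-0.23) or the length correction (-0.13). All 6 mutant libraries lay on one side of both GFP libraries for 5 of 30 members, with SESN2, XPC and TNFRSF10B above and BAX and SPATA18 below, where 17.2% of all tested genes did so.

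Of the 5 members named above as ATF4 or CHOP targets, 2 rose in R175H (SESN2 and GDF15) and 1 in each of the other mutants (SESN2). Over all genes, 6.39%, 4.88% and 0.757% rose in R175H, R248Q and R273H. PMAIP1 (0.03 ± 0.10), GADD45A (0.04 ± 0.10) and TNFRSF10B (0.12 ± 0.07, log2, SE, R175H against GFP) were not called. Against R175H, GDF15 was the 1 gene of the 5 called in R248Q and in R273H.

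Among 26 tested regulators of p53, R175H had 4 higher, R248Q 4 and R273H 2, and none was lower, where 6.39%, 4.88% and 0.757% of all genes rose. The acetyltransferases EP300 (log2 values of 0.50, 0.94 and 0.57, in the order R175H, R248Q, R273H) and CREBBP (0.30, 0.64 and 0.38) were called in each mutant, and the damage kinase ATM in R175H (0.35) and R248Q (0.64). The kinase HIPK2 rose in R248Q (0.59), and PPP1R13L, an inhibitor of p53 (iASPP), rose in R175H (0.62). EP300, CREBBP, ATM and HIPK2 have transcripts of 9587 nt or more. In transcripts of 8000 nt or more GFP replicate 1 was low (-0.29) and both R248Q libraries were high (0.15 and 0.13, log2). The part of these deviations in the rises was not tested. MDM2 measured 24.0 and 22.1 CPM in GFP, against 21.0 and 20.1 (R175H), 23.8 and 20.9 (R248Q) and 22.1 and 19.9 (R273H), and was not called (-0.17, -0.04 and -0.14, log2).

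Of 49 tested further genes known as p53 targets, 1 was higher and 6 were lower in R175H, and 1 was lower in R248Q and in R273H. Of all tested genes, 6.39% were higher and 4.59% lower in R175H, and 1.44% and 0.250% were lower in R248Q and R273H. IGFBP3, a secreted binding protein for insulin-like growth factors, was the gene that fell in each mutant, with 42.0 and 46.1 CPM in GFP, against 30.7 and 30.5 (R175H), 26.9 and 29.6 (R248Q) and 32.4 and 29.1 (R273H). All 6 mutant libraries were below GFP, by log2 values of -0.53, -0.64 and -0.52 (adjusted p = 0.00231, 4.47e-04 and 0.0100). The antiproliferative gene BTG1, a relative of BTG2, rose in R175H (0.42 ± 0.09) and differed there from both other mutants (-0.59 and -0.44 against R175H). Also in R175H the matrix protein THBS1 (-0.73), C12orf5, the glycolysis regulator TIGAR (-0.43), the phosphatase DUSP14 (-0.35), the peroxidase GPX1 (-0.25) and the adaptor TRAF4 (-0.25) fell.

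**Figure D5:**
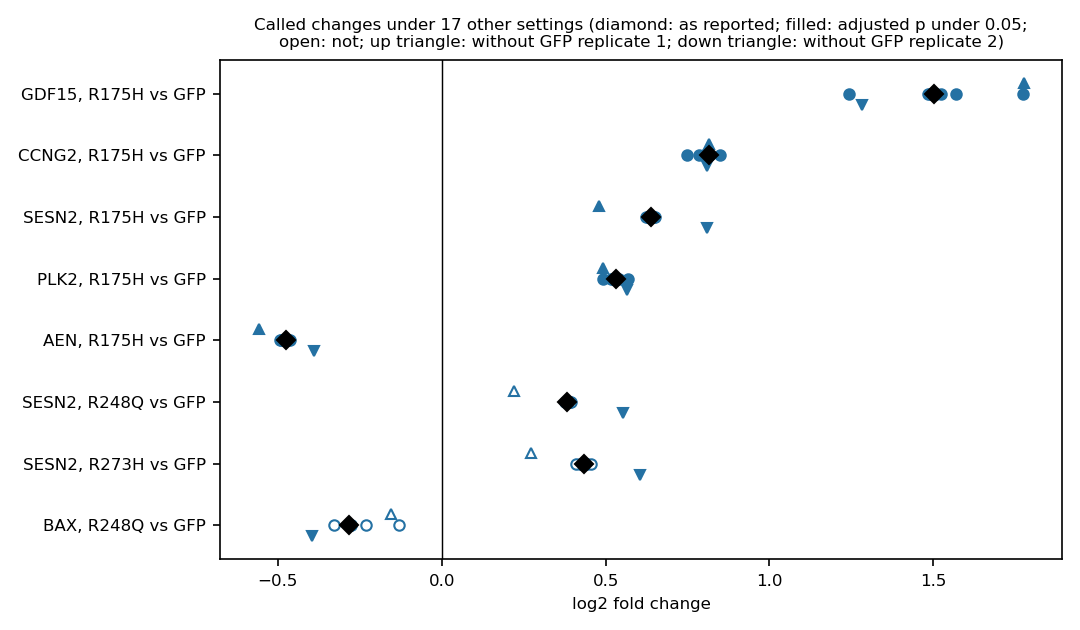
Log2 fold change of 8 called changes as reported (diamonds) and under other settings (circles), without GFP replicate 1 (up triangles) and without GFP replicate 2 (down triangles); filled symbols have an adjusted p under 0.05. The 5 changes in R175H stay called throughout, whereas SESN2 in R248Q and R273H and BAX in R248Q have open symbols, among them those without GFP replicate 1.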

How the data were processed

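The submitters' processing notes name bcl2fastq, STAR 2.5 and the hg19 build. The authors deposited raw read counts per gene, as whole numbers. The sources used here do not give the counting program, annotation or strand setting, and genes that overlap others are therefore uncertain.

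In R 4.3.3, genes were kept by filterByExpr (minimum count 10, total 15) of edgeR 4.0.16, scaled by TMM (factors 0.989 to 1.01) and fitted with a quasi-likelihood model of group means over all 8 libraries (4 residual degrees of freedom). The 7 comparisons were each mutant, and their mean, against GFP, and each pair of mutants. SE is the absolute log2 fold change over the square root of F. SD and n refer to libraries. Transcript lengths came from GENCODE 29 (principal isoform by APPRIS) for 97.2% of tested genes, a definition chosen after a first run with the longest transcript had been seen. Alternatives included DESeq2 1.42.0, limma-voom 3.58.1, a loess correction for length, a replicate block and leaving out each library. Replicate numbers did not pair the libraries (correlations of deviations -0.09 to 0.05). The fit was checked on simulated data with the same spread in every group. That check does not cover the wider spread between the GFP replicates.

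The members, gene lists and tests were chosen with earlier results of these data known. Values in every library are given for members called in any comparison and for CDKN1A, BAX, BBC3, FAS, DDB2 and ZMAT3; those for TP53INP1, MDM2 and IGFBP3 were added after their values were seen. Of the list of p53 regulators, 1 gene is not reported here.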

Additional observations from a re-analysis of the deposited data

Results flagged for a closer look

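By the direct test of the mutant pair, 4 p53 targets differed between R175H and each of the other mutants, which makes 8 values. Each is given as the log2 value of the first mutant minus R175H. PLK2 had -0.52 in R248Q and -0.50 in R273H, both lower than in R175H. CCNG2 had -0.89 and -0.94, and GDF15 -1.57 and -1.23. AEN had 0.43 and 0.51, both higher than in R175H. Between R273H and R248Q, 0 members were called by edgeR, and 0 had an unadjusted p under 0.05; DESeq2 and limma-voom also called 0.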

How the results depend on the processing

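Over 17 alternatives no called change reversed its direction. Over 19 calls of a member in a comparison, a call was lost 54 times, and calls were gained 44 times. The calls of PLK2, CCNG2, AEN, SESN2 and GDF15 in R175H against GFP were kept in all 17. In R248Q against GFP, 1 member was called with library size alone, 1 with a replicate block and 1 with the length correction, and 0 with DESeq2 or with only the groups compared, in place of 2. In R273H against GFP, 0 members were called with library size alone, DESeq2, a replicate block or only the groups compared, in place of 1. With only the groups compared, 10 members differed between R248Q and R175H and 7 between R273H and R175H, in place of 4 and 4. Those fits estimate the spread without the GFP libraries. The share of all genes called in them is not given, so nothing is read from these counts about the list. The length correction moved the members' median to 0.0828 in R175H and -0.0397 in R248Q. The replicate block moved no other count of members by over 1.5 times. It gave 2 in place of 3 for the mean of the mutants, where BAX was lost. The cause of these shifts was not tested.

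Leaving out 1 library at a time, the number of members called ranged from 5 to 9 in R175H, 0 to 4 in R248Q, 0 to 3 in R273H and 1 to 5 for the mean of the mutants, and from 3 to 8 for R248Q and 2 to 8 for R273H against R175H. The members' median log2 fold change ranged from 0.0368 to 0.107 in R175H, -0.112 to -0.0238 in R248Q, -0.127 to -0.0152 in R273H and -0.0449 to 0.0236 for the mean of the mutants. It ranged from -0.123 to -0.0712 for R248Q and -0.115 to -0.0896 for R273H against R175H, and from -0.00274 to 0.0255 for R273H against R248Q. Without GFP replicate 2, a larger share of all genes was called in each mutant against GFP than in the full fit. With 2 libraries a group, genes of low count such as SPATA18, PLK3 and TP53INP1 allow only wide intervals.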
